A study of Gallus gallus with 21 samples.

Results

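The retina of control chickens was compared between 3 days and 1 day of the study, that is, between postnatal day 6 and postnatal day 4. The comparison takes in the 7 libraries titled for 3 days and the 7 titled for 1 day, 14 of the 21 libraries in all. It covers the genes with at least 0.5 CPM (a gene's reads scaled to the size of its library) in at least 7 of the 21 libraries, which are 12614 of the 18631 genes in the table. The filter used levels in all libraries and not the difference between the groups. All birds were wild-type White Leghorn chickens that entered the study at postnatal day 3 and lived under a standard light regime, and the labels record no lens and no agent for any of them. The study asks how eyes compensate for defocus imposed by a lens, and its control birds are described here. The remaining group, of 7 libraries at 6 days (postnatal day 9), shared its spread with the test, and its levels are set beside the others. Each library was made from total RNA after removal of ribosomal RNA. The labels give neither the sex of a bird nor whether a bird gave more than 1 library, so p-values measure the spread between libraries. The hour of collection is not given in the sources used here.

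The retina keeps its own circadian clock. The activators BMAL1 (gene ARNTL) and CLOCK switch on the genes of their own repressors, the PER and CRY proteins and the REV-ERB receptors, and the resulting daily rhythm reaches photoreceptor genes, melatonin synthesis and metabolism. Chaperones of the HSP70 and HSP90 families fold and refold proteins with the help of J-domain proteins, nucleotide exchange factors and other cochaperones, and heat shock factors raise many of their genes together. Light detection in rods and cones runs from an opsin through transducin and a phosphodiesterase to a cyclic nucleotide channel, with calcium feedback on guanylate cyclase and opsin kinases, while the visual cycle rebuilds the light-absorbing retinal.

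Estimated library totals were 27.7 to 40.3 megareads at 1 day and 31.4 to 41.4 megareads at 3 days. The genes in the table took 29.9% to 31.9% and 30.8% to 33.3% of them. HINTW lies on the W chromosome, which only hens have; its level was 121 to 147 CPM in 13 of all libraries and 0.0286 to 0.549 CPM in 8. The 1-day group held 3 libraries with W-linked transcripts, the 3-day group 4 and the 6-day group 6. For some genes, fold changes within each kind of library are therefore given beside the main ones. The median gene lay lower in 1 library at 3 days, C42L, at -0.09 (log2 deviation from each gene's mean), than in the others at that time, at -0.03 to +0.07. At 1 day it lay below 0 in every library, from -0.13 in C18R to -0.02 in C21R, with C10R at -0.12 and C17L at -0.09. Library C10R at 1 day was the lowest or highest of its group by a wide gap in several genes named below, and C33R and C41R stood far from the other libraries at 3 days in 2.31% and 1.57% of genes, compared with 0.246% to 0.832% for the rest of that group. Retinal markers were abundant throughout, with the cone phosphodiesterase subunit gene PDE6H at 576 ± 49.03 and 646 ± 43.4 CPM (SD, n = 7 each) and GAD1, which makes the transmitter GABA in amacrine cells, at 317 ± 12.8 and 315 ± 21.4 CPM.

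At 3 days, 972 genes were higher and 307 lower than at 1 day, together 10.1% of the genes tested (7.71% and 2.43%). A gene is said to have risen or fallen where its adjusted p was under 0.05 in limma, a linear model on log2(CPM + 0.5) fitted across all genes. Differences were small: the median rise was +0.35 and the median fall -0.31 on the log2 scale, 114 rises and 38 falls reached 1.5-fold, 12 genes at least doubled and 3 at least halved. The median gene lay at +0.07, and 67.4% of genes lay above 0. Scaling by median of ratios brought the median gene to 0.00 and gave 569 rises beside 695 falls; quantile normalization gave 573 rises and 608 falls. The balance between rises and falls therefore turned with the scaling. The number of rises also depended on single libraries, at 629 without C18R of 1 day, 638 without C33R and 1719 without C42L of 3 days. Without C42L 434 genes fell. The counts of gene lists below belong beside 7.71% rises and 2.43% falls. The lists and their members were chosen with earlier results of these data known. Their shares therefore describe the lists and are not a test of them. Under an alternative they belong beside the totals of that alternative. In the 3 and 4 libraries with W-linked transcripts alone, 174 genes rose and 96 fell, and in the 4 and 3 libraries without them 48 rose and 25 fell. The groups did not overlap in 2.03% of genes, 193 higher and 63 lower at 3 days (1.53% and 0.499%). Of the genes named below, HSPA8, HSPA4, GNB1, GRK7, RGS9BP, UBAP1L, CCDC169, SESN1, PFKFB3, CPLX4, RIMS1, SQSTM1, RPL5, H1FX and DRD1 overlap another gene on the same strand, so their counts may share reads with it.

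**Figure D1:**
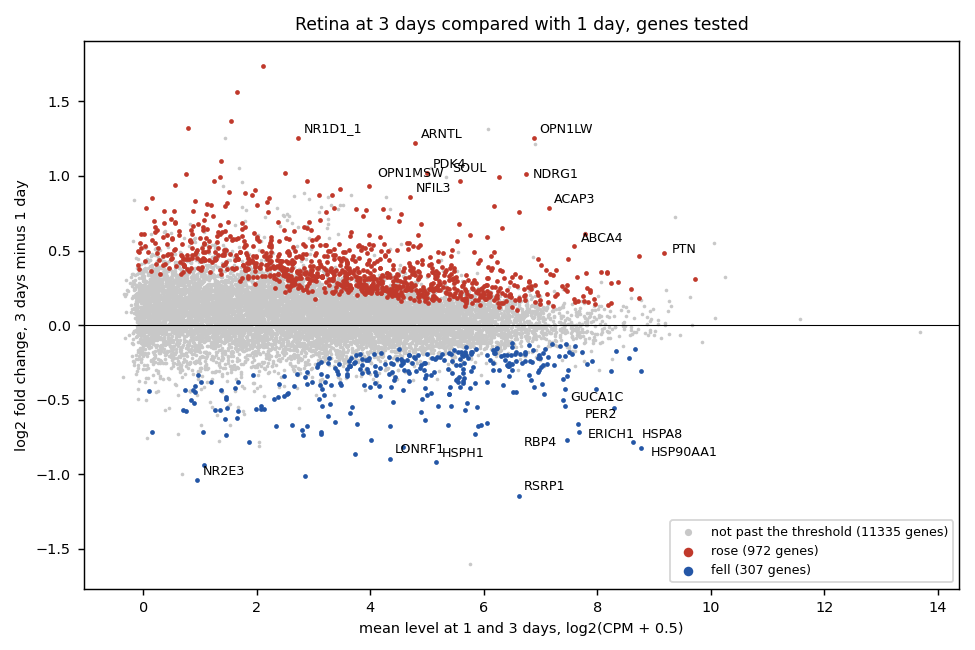
Each point is 1 of the 12614 genes tested, placed by its mean level over 1 and 3 days on a log2(CPM + 0.5) scale (x axis) and its log2 fold change at 3 days relative to 1 day (y axis). The 972 rises are red and the 307 falls blue; clock and light genes such as ARNTL and OPN1LW lie near the top, and the abundant chaperone genes HSPA8 and HSP90AA1 lie below -0.75.

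Clock genes moved in both directions. Among 7 activator genes tested 3 rose and 0 fell, and among 20 genes of repressors and outputs 5 rose and 4 fell. Among all genes 7.71% rose and 2.43% fell. ARNTL (chromosome 5, 7819805 to 7864577, build GRCg6a), which encodes BMAL1, ran from 11.6 to 22.4 CPM at 1 day (median 15.3) and from 27.9 to 44.9 CPM at 3 days (median 37.7). All libraries at 3 days lay above all those at 1 day, and the gene rose (log2 fold change +1.22, SE 0.14, adjusted p = 7.80e-06). Within libraries with and without W-linked transcripts the fold changes of ARNTL were +1.02 and +1.30. ARNTL2 (chromosome 1, 68130352 to 68167203), which encodes the related activator BMAL2, held from 33.1 to 38.8 CPM at 1 day (median 35.3) and from 40.7 to 57.5 CPM at 3 days (median 52.6). Its groups did not overlap either (log2 fold change +0.50, SE 0.07, adjusted p = 6.07e-05). NPAS2, a partner of BMAL1 that can stand in for CLOCK, had 8.56 to 10.2 CPM at 1 day and 9.62 to 18.8 CPM at 3 days. Library C42L alone of the 3-day group lay within the range of the 1-day group, at 9.62 CPM (log2 fold change +0.60, SE 0.10, adjusted p = 0.000340). CLOCK itself did not pass, at 87.7 ± 8.21 and 93.4 ± 9.49 CPM (+0.09, adjusted p = 0.374), nor did RORA, a receptor that activates ARNTL (+0.06, adjusted p = 0.401).

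Some repressor genes, PER2, PER3, CRY2 and NR1D2, went the other way. PER2 (chromosome 9, 5654602 to 5695660) ran from 214 to 279 CPM at 1 day (median 247) and from 122 to 191 CPM at 3 days (median 158). Every library at 3 days was below every library at 1 day, and PER2 fell (log2 fold change -0.66, SE 0.08, adjusted p = 1.83e-05). Within libraries with and without W-linked transcripts its fold changes were -0.68 and -0.62. PER3 fell too, from 75.3 ± 14.1 to 46.97 ± 6.98 CPM (log2 fold change -0.67, SE 0.11, adjusted p = 0.000598), with 1 library at 3 days inside the 1-day range, again C42L at 59.3 CPM. CRY2 fell by a smaller amount (-0.35, adjusted p = 0.00102), as did NR1D2, which encodes REV-ERB beta (-0.37, adjusted p = 0.000865). CRY1 did not pass, at 37.2 ± 1.84 and 38.4 ± 3.75 CPM (+0.04, adjusted p = 0.683).

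Other genes of the list of repressors and outputs rose, among them an entry named for a REV-ERB receptor, unlike NR1D2. NFIL3 (chromosome Z, 44356108 to 44370014), which encodes the repressor E4BP4, ran from 14.7 to 20.7 CPM at 1 day (median 17.9) and from 27.2 to 44.8 CPM at 3 days (median 30.6). No library at 1 day reached the lowest at 3 days (log2 fold change +0.86, SE 0.13, adjusted p = 0.000187), and the fold changes of this Z-linked gene were +0.74 and +1.03 within the kinds of library. FBXL21, a ubiquitin ligase subunit that acts on CRY proteins, held 18.1 to 27.5 CPM at 1 day and 29.1 to 41.97 CPM at 3 days, without overlap (log2 fold change +0.68, SE 0.09, adjusted p = 2.55e-05). NOCT, a phosphatase of clock output also called nocturnin, rose from a low level (+0.49, adjusted p = 0.00280). NR1D1_1 (chromosome 28, 2283345 to 2295938), a second entry in the table under the name of REV-ERB alpha, ran from 1.84 to 4.88 CPM at 1 day (median 3.63) and from 3.76 to 11.4 CPM at 3 days (median 9.14). The values are of NR1D1_1 alone, and the other entry of that name is not described here. Its rise was the largest among the ranked genes, with that of OPN1LW next (log2 fold change +1.25, SE 0.23, adjusted p = 0.00109), although C42L, at 3.76 CPM, lay within the 1-day range. The fold change of NR1D1_1 was +1.07 with W-linked transcripts and +1.23 without them, the latter not past the threshold (adjusted p = 0.0771). C42L was the library at 3 days nearest to the 1-day group for most of the clock genes called. These were ARNTL, ARNTL2, NPAS2, NR1D1_1, FBXL21, PER2, PER3, CRY2 and NR1D2. For NFIL3 and NOCT another library was nearest. Without C42L all the genes for which it was nearest still passed, and so did they without any other single library.

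**Figure D2:**
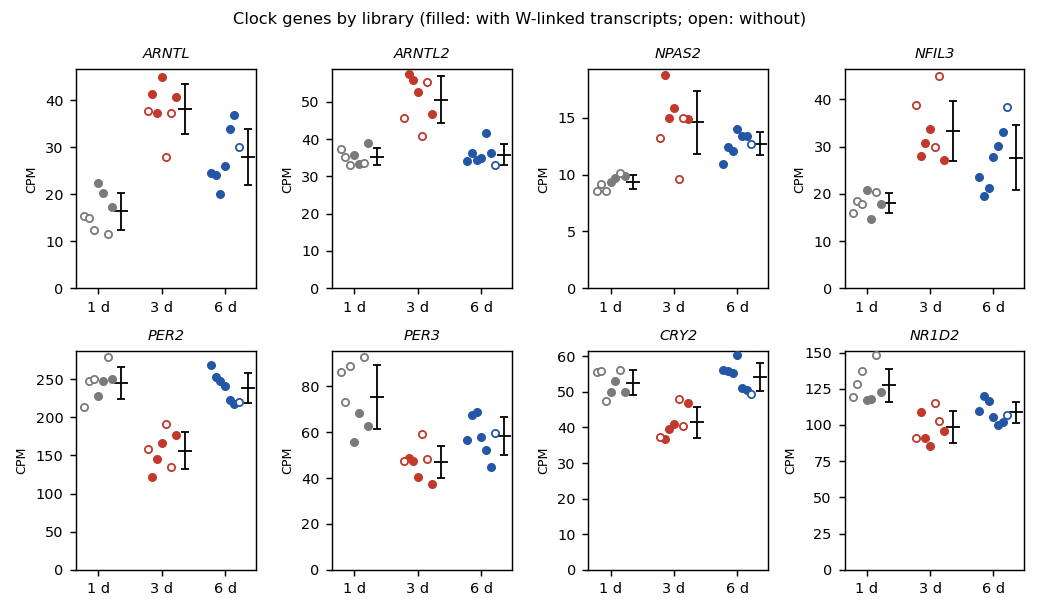
Levels in CPM (y axis, from 0) of 8 clock genes in each library at 1, 3 and 6 days (x axis), with filled points for libraries with W-linked transcripts, open points for those without, and bars for the mean ± SD of 7 libraries. ARNTL, ARNTL2, NPAS2 and NFIL3 are higher at 3 days than at 1 day, and PER2, PER3, CRY2 and NR1D2 are lower.

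At 6 days the levels of these genes did not all stay where they were at 3 days. PER2 stood at 239 ± 19.2 CPM, ARNTL2 at 35.8 ± 2.83 CPM and FBXL21 at 24.7 ± 2.39 CPM, beside 245 ± 20.52, 35.3 ± 2.21 and 22.4 ± 3.21 CPM at 1 day. ARNTL stood at 27.9 ± 5.93 CPM, between its levels at 1 and 3 days, and NR1D1_1 at 9.73 ± 2.88 CPM. From 3 to 6 days, when 22.3% of genes passed (17.4% higher and 4.93% lower), PER2 rose by +0.62 (adjusted p = 1.81e-05) and ARNTL2 changed by -0.49 (adjusted p = 4.92e-05), a comparison that shares the 3-day libraries with the one described here. Whether the hour of collection differed between the groups was not tested, since it is not given. In the melatonin pathway TPH1, the first enzyme, rose (8.53 to 13.5 CPM at 1 day and 11.4 to 17.1 CPM at 3 days; log2 fold change +0.43, SE 0.09, adjusted p = 0.00459), and it was the only call among 5 genes tested, with 2 rises and 1 fall without C42L. AANAT, which makes the direct precursor of melatonin, stood at 2.35 ± 0.233 and 2.96 ± 0.426 CPM (+0.27, adjusted p = 0.147). Of 11 genes of dopamine synthesis and reception 0 passed with limma, 3 had an unadjusted p under 0.05 and 2 passed without C42L; the most abundant, the receptor gene DRD1, stood at 39.4 ± 2.12 and 41.6 ± 1.57 CPM.

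Several abundant cytosolic chaperone genes were lower at 3 days, while most of the chaperone genes tested did not pass. Of 25 genes of the HSP70 system 9 fell and 2 rose, and of 18 of the HSP90 system 5 fell and 1 rose, beside 2.43% falls among all genes. Falls were more frequent among abundant genes, at 4.45% of those with a mean of 20 to 100 CPM and 9.23% of those with 100 CPM or more. HSPA8 (chromosome 24, 3102900 to 3107843), the constitutive HSP70 chaperone HSC70, ran from 375 to 558 CPM at 1 day (median 501) and from 198 to 366 CPM at 3 days (median 296). The groups did not overlap, and the gene fell (log2 fold change -0.78, SE 0.11, adjusted p = 7.75e-05); 2 other genes of the table overlap it on the same strand, and the division of shared reads is not given. HSP90AA1 (chromosome 5, 49679064 to 49684242), the inducible cytosolic HSP90, ran from 374 to 637 CPM at 1 day (median 592) and from 199.5 to 417 CPM at 3 days (median 305). Library C10R, at 374 CPM, was the single 1-day library within the 3-day range (log2 fold change -0.83, SE 0.14, adjusted p = 0.000672). HSP90AB1, the constitutive form, was far less abundant in this table and did not pass, at 17.6 ± 1.74 and 16.99 ± 3.54 CPM (-0.07, adjusted p = 0.685). HSPH1, a large HSP70 relative that exchanges nucleotide on HSP70, held 25.6 to 59.4 CPM at 1 day and 15.7 to 27.6 CPM at 3 days, and here too C10R alone overlapped, at 25.6 CPM (log2 fold change -0.92, SE 0.17, adjusted p = 0.00128).

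Some partners of HSP70 fell as well. DNAJA1 (chromosome Z, 70798137 to 70805869) and DNAJA4 encode J-domain proteins that load clients onto HSP70. DNAJA1 ran from 23.04 to 36.7 CPM at 1 day (median 26.3) and from 9.86 to 22.1 CPM at 3 days (median 16.2), and DNAJA4 from 15.1 to 23.97 CPM at 1 day (median 19.6) and from 7.64 to 14.3 CPM at 3 days (median 11.9). Neither gene overlapped between the groups, with log2 fold change -0.82, SE 0.15, adjusted p = 0.00107 for DNAJA1 and log2 fold change -0.77, SE 0.11, adjusted p = 0.000167 for DNAJA4. HSPA2, a further HSP70 (-0.65, adjusted p = 0.00326), and the exchange factors HSPA4 (-0.42, adjusted p = 0.0140) and HSPA4L (-0.39, adjusted p = 0.00100) also fell. ST13, which binds HSP70 and HSP90, fell by less (-0.25, adjusted p = 0.0286). The rises were those of the ribosome-associated HSPA14 (+0.36, adjusted p = 0.0206) and the exchange factor BAG5 (+0.24, adjusted p = 0.0205). ST13, HSPA14 and BAG5 lay near the threshold and lost their calls without C33R (ST13, adjusted p = 0.0761; BAG5, adjusted p = 0.0541) or without C18R (ST13, adjusted p = 0.0668; HSPA14, adjusted p = 0.0554), and ST13 and HSPA14 also without 1 to 4 other libraries each. J-domain genes DNAJB6 (0.00), DNAJB4 (+0.02) and DNAJC7 (+0.05) did not pass.

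Among HSP90 cochaperones, FKBP4, an immunophilin of steroid receptor complexes, fell from 47.9 ± 5.98 to 34.98 ± 6.90 CPM (log2 fold change -0.46, SE 0.10, adjusted p = 0.00498). AHSA1 and AHSA2, which stimulate the ATPase of HSP90, fell to a like degree (-0.40 and -0.39, adjusted p = 0.00534 and 0.00265), and CHORDC1 was near the threshold (-0.30, adjusted p = 0.0391; without C33R adjusted p = 0.0991, and lost likewise without 8 other libraries). FKBP5, an immunophilin that glucocorticoids induce, went the other way (8.83 to 14.8 CPM at 1 day and 13.1 to 21.7 CPM at 3 days; log2 fold change +0.52, SE 0.11, adjusted p = 0.00406). Of 12 genes of the chaperonin TRiC and prefoldin 3 fell and 0 rose, namely the TRiC subunits CCT4 (-0.37, adjusted p = 0.00489), CCT7 (-0.26, adjusted p = 0.00689) and CCT8 (-0.20, adjusted p = 0.0123). HSPD1, the mitochondrial HSP60, was the single call among 12 mitochondrial chaperones (-0.35, adjusted p = 0.0347). Its call was lost without any 1 of 10 libraries, as without C33R (adjusted p = 0.0868), and C10R, at 22.4 CPM, was the lowest library of all at 1 day.

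Among folding genes of the endoplasmic reticulum 3.70% rose and 0% fell, beside 7.71% and 2.43% of all genes. Of 27 tested 0 fell and 1 rose, the HSP70 relative HSPA13 (8.41 to 10.6 CPM at 1 day and 11.6 to 16.01 CPM at 3 days; log2 fold change +0.42, SE 0.08, adjusted p = 0.00103), without overlap. Without C42L 3 rose and 1 fell. With median-of-ratios scaling 1 rose and 2 fell, and so it was with quantile normalization. The abundant chaperones HSPA5, or BiP, at 53.8 ± 8.996 and 48.4 ± 8.68 CPM (-0.15, adjusted p = 0.438) and HSP90B1, at 109.7 ± 10.7 and 96.4 ± 17.6 CPM (-0.20, adjusted p = 0.200), did not pass. Small heat shock proteins and heat shock factors gave 0 calls with limma in 5 genes, 2 at an unadjusted p under 0.05 and up to 1 rise and 1 fall when C22L, C23R or C42L was left out, with HSF2, the most abundant, at 31.8 ± 2.81 and 27.8 ± 1.66 CPM (-0.19, adjusted p = 0.0576); scaled by median of ratios, HSF2 fell (adjusted p = 0.0196). In the list of amino acid stress genes 1 of 16 fell, PSPH, which makes serine (-0.72, adjusted p = 0.0116), and ATF4, the transcription factor of that response, stood at 116 ± 15.3 and 129 ± 16.9 CPM (+0.15, adjusted p = 0.285).

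The falls had the same direction within both kinds of library. With W-linked transcripts the fold changes were -0.92 for HSPA8, -0.87 for HSP90AA1, -1.06 for HSPH1 and -0.84 for DNAJA4, and without them -0.65, -0.78, -0.74 and -0.68. With W-linked transcripts 6 of the 25 HSP70 genes passed as falls, and without them, with 4 and 3 libraries, 0 did (HSPA8, adjusted p = 0.0565). Without C10R, the 1-day library with the lowest HSPA8, HSP90AA1 and HSPH1, 9 HSP70 and 6 HSP90 genes fell. At 6 days HSPA8 stood at 597 ± 68.6 CPM, HSP90AA1 at 641 ± 96.7 CPM and DNAJA1 at 29.2 ± 4.40 CPM, each above its level at 3 days, and 12 of the 25 HSP70 genes rose from 3 to 6 days, beside 17.4% of all genes. That count shares the 3-day libraries with the falls.

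**Figure D3:**
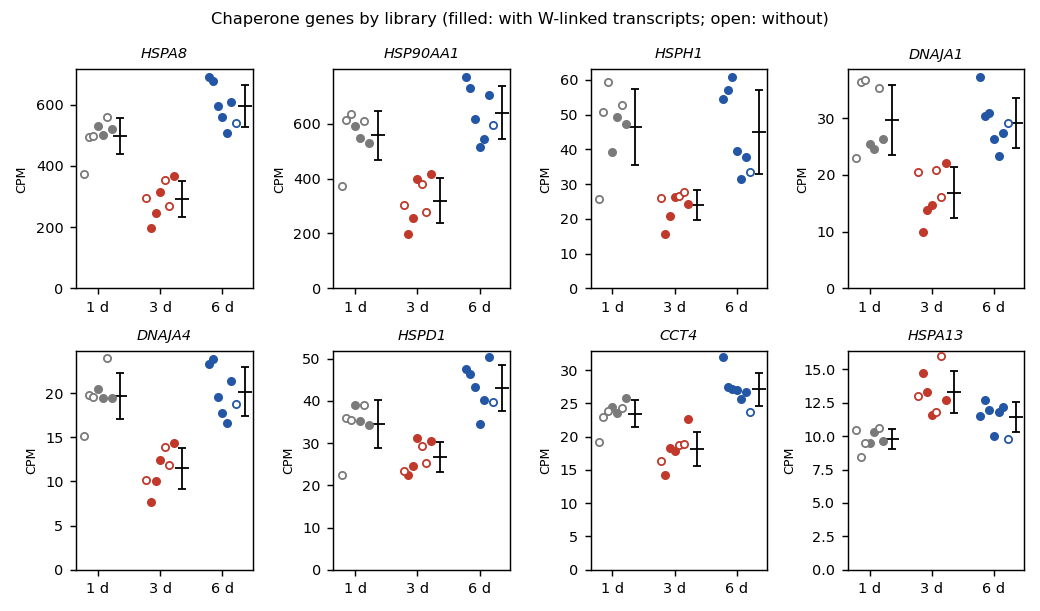
Levels in CPM (y axis, from 0) of 8 chaperone genes in each library at 1, 3 and 6 days (x axis), filled with and open without W-linked transcripts, with bars for the mean ± SD of 7 libraries. HSPA8, HSP90AA1, HSPH1, DNAJA1, DNAJA4, HSPD1 and CCT4 are lower at 3 days than at 1 day, with 1 low library at 1 day (C10R) in several of them, while HSPA13 of the endoplasmic reticulum is higher.

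Light detection genes split, with the named cone opsins and a rod channel gene higher and genes such as GRK7 and PDE6B lower at 3 days. Of 20 rod genes 6 rose and 3 fell, and of 16 cone genes 3 rose and 3 fell, beside 7.71% rises and 2.43% falls among all genes. With median-of-ratios scaling the rod list had 5 rises and 5 falls, and in libraries with W-linked transcripts alone 1 rise and 2 falls. In bulk tissue, fewer cells of a type and less RNA per cell cannot be told apart. OPN1LW, the long-wavelength cone opsin, lies on an unplaced sequence at 194473 to 214895 and ran from 25.6 to 96.6 CPM at 1 day (median 77.01) and from 72.97 to 221 CPM at 3 days (median 168). C42L, at 72.97 CPM, was the single 3-day library below the highest at 1 day, and C10R, at 25.6 CPM, was the lowest of all (log2 fold change +1.25, SE 0.25, adjusted p = 0.00212). OPN1MSW (chromosome 26, 4556844 to 4562455), a medium-wavelength cone opsin, ran from 19.2 to 41.7 CPM at 1 day (median 32.5) and from 41.4 to 82.4 CPM at 3 days (median 58.4), with the same library just inside the 1-day range (log2 fold change +0.97, SE 0.16, adjusted p = 0.000356). At 1 day both opsins, like ARNTL and NR1D1_1, were higher in each of the 3 libraries with W-linked transcripts than in any of the 4 without them. Within the kinds of library the fold changes were +0.90 and +1.42 for OPN1LW and +0.81 and +0.97 for OPN1MSW. OPN1LW did not pass in the libraries without W-linked transcripts (adjusted p = 0.121).

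Among genes of the rod cascade, SLC24A1, the sodium and calcium exchanger of rods, had 8.51 to 13.7 CPM at 1 day and 12.96 to 26.9 CPM at 3 days (log2 fold change +0.77, SE 0.13, adjusted p = 0.000582). CNGB1, a subunit of the rod channel, rose alike (+0.63, adjusted p = 0.00505), as did GNB1, the transducin beta subunit, without overlap (91.3 to 122 CPM at 1 day and 127 to 154 CPM at 3 days; +0.44, adjusted p = 0.000340). GNAT1, the rod transducin alpha subunit, was nearer the threshold (+0.54, adjusted p = 0.0256; adjusted p = 0.0680 without C33R, and lost also without C18R, C22L or C41R). GUCA1B, an activator of guanylate cyclase (+0.38, adjusted p = 0.00188), PRPH2, which shapes the outer segment rim (+0.16, adjusted p = 0.0136), and GNGT2, the cone transducin gamma subunit (+0.35, adjusted p = 0.00972), completed the rises.

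The falls in the rod and cone lists were of GRK7, GUCA1C, CNGA3, RGS9BP, PDE6B and NR2E3. GRK7, the kinase that turns off cone opsins, ran from 175 to 206 CPM at 1 day (median 199.8) and from 119 to 153 CPM at 3 days (median 146). GUCA1C, a cyclase activator like GUCA1B, ran from 173 to 235 CPM at 1 day (median 205) and from 119.9 to 160.2 CPM at 3 days (median 139). Neither gene overlapped between the groups, and both fell (GRK7, log2 fold change -0.50, SE 0.06, adjusted p = 2.42e-05; GUCA1C, log2 fold change -0.54, SE 0.07, adjusted p = 2.58e-05). Their fold changes within the kinds of library were -0.48 and -0.53 for GRK7 and -0.47 and -0.61 for GUCA1C. CNGA3, the main subunit of the cone channel, fell from 60.2 ± 7.64 to 41.01 ± 9.58 CPM (log2 fold change -0.57, SE 0.12, adjusted p = 0.00311), and RGS9BP, which anchors the protein that shuts off transducin, fell by less (-0.31, adjusted p = 0.00769). PDE6B, a catalytic subunit of the rod phosphodiesterase on the Z chromosome, had 51.1 to 90.9 CPM at 1 day and 33.5 to 59.4 CPM at 3 days (log2 fold change -0.67, SE 0.13, adjusted p = 0.00135; -0.59 and -0.63 within the kinds of library). NR2E3 (chromosome 10, 1852294 to 1857168), a nuclear receptor that sets rod over cone identity in mammals, was low throughout, from 1.62 to 2.499 CPM at 1 day (median 2.29) and from 0.483 to 1.11 CPM at 3 days (median 0.877). Its groups did not overlap (log2 fold change -1.04, SE 0.14, adjusted p = 3.76e-05), and it was 1 of the 3 genes that at least halved. ARR3, cone arrestin, and PDE6C, the cone phosphodiesterase, did not pass (-0.24, adjusted p = 0.0686; 0.00, adjusted p = 0.983). The counts of the cone list changed with the scaling and with single libraries, as did those of all genes. The list had 3 rises and 7 falls under median-of-ratios scaling, beside 569 and 695 among all genes. Without C42L it had 4 and 6, beside 1719 and 434. There were 5 falls in it without C19L or C41R.

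**Figure D4:**
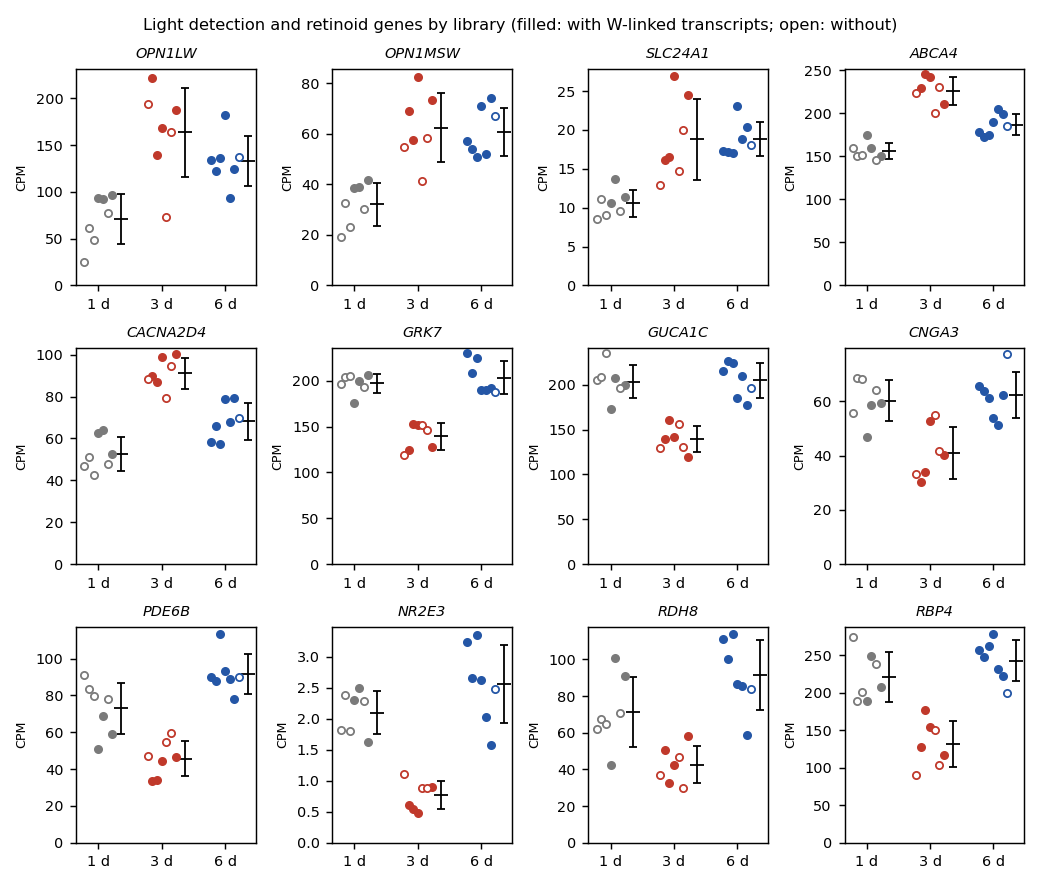
Levels in CPM (y axis, from 0) of 12 genes of light detection, its synapse and retinoid handling in each library at 1, 3 and 6 days (x axis), filled with and open without W-linked transcripts, with bars for the mean ± SD of 7 libraries. OPN1LW, OPN1MSW, SLC24A1, ABCA4 and CACNA2D4 are higher at 3 days than at 1 day, and GRK7, GUCA1C, CNGA3, PDE6B, NR2E3, RDH8 and RBP4 are lower.

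Of 17 visual cycle genes 2 rose (11.8%) and 3 fell (17.6%), beside 7.71% and 2.43% of all genes. There were 4 rises without C42L. ABCA4 (chromosome 8, 14048452 to 14135936), which clears retinal from outer segment discs, ran from 146 to 175 CPM at 1 day (median 151) and from 200.3 to 246 CPM at 3 days (median 229.8). Its groups were well apart, with one of the smallest adjusted p-values of the comparison (log2 fold change +0.53, SE 0.05, adjusted p = 7.94e-07), and the fold changes within the kinds of library were +0.52 and +0.52. DHRS3, which reduces retinal, rose from a lower level (+0.49, adjusted p = 0.00334). RDH8, the outer segment enzyme that reduces all-trans-retinal, fell, with 42.4 to 101 CPM at 1 day and 30.1 to 58.1 CPM at 3 days (log2 fold change -0.73, SE 0.17, adjusted p = 0.00723). RBP4 (chromosome Z, 53612243 to 53617574), the retinol carrier, ran from 189 to 274 CPM at 1 day (median 207) and from 90.8 to 177 CPM at 3 days (median 127), without overlap (log2 fold change -0.77, SE 0.12, adjusted p = 0.000240; -0.59 and -0.99 within the kinds of library). RBP3, the retinoid carrier between photoreceptors and pigment epithelium, was close to the threshold (-0.26, adjusted p = 0.0440) and lost its call without any 1 of 10 libraries, as without C22L (adjusted p = 0.0951). At the photoreceptor synapse, CACNA2D4 (chromosome 1, 60966651 to 61086781), the calcium channel subunit of ribbon terminals, ran from 42.8 to 64.01 CPM at 1 day (median 51.04) and from 79.1 to 100.3 CPM at 3 days (median 89.7). All 3-day libraries exceeded all 1-day libraries (log2 fold change +0.80, SE 0.09, adjusted p = 5.17e-06); 3 genes on the other strand overlap CACNA2D4. At 6 days ABCA4 and CACNA2D4 stood at 186 ± 12.2 and 68.2 ± 8.77 CPM, and NR2E3, RBP4 and GRK7 at 2.57 ± 0.626, 243 ± 27.03 and 203 ± 18.01 CPM, these last all above their 3-day means.

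NDRG1 and PDK4 were among the largest rises. NDRG1 (chromosome 2, 141967427 to 142007619), a gene that hypoxia and other stresses induce, ran from 59.9 to 89.2 CPM at 1 day (median 68.1) and from 124 to 167 CPM at 3 days (median 139.9). The lowest 3-day library stood well above the highest at 1 day (log2 fold change +1.01, SE 0.09, adjusted p = 5.34e-07), and the fold changes within the kinds of library were +0.81 and +1.18. PDK4 (chromosome 2, 23874761 to 23914453), the kinase that holds back pyruvate dehydrogenase during fasting, ran from 14.7 to 27.3 CPM at 1 day (median 19.8) and from 31.8 to 56.99 CPM at 3 days (median 42.96), again without overlap (log2 fold change +1.02, SE 0.13, adjusted p = 3.54e-05; +0.85 and +1.26 within the kinds of library). At 6 days they stood at 79.5 ± 9.25 and 21.9 ± 3.70 CPM, beside 70.6 ± 10.7 and 20.7 ± 4.18 CPM at 1 day. Genes that fasting or glucocorticoids control split, with 6 rises, PDK4 and FKBP5 included, and 2 falls in 27 (3 and 5 with median-of-ratios scaling; 3 rises without C18R, C31L, C33R or C43R, and 1 fall without C17L, C33R or C34L). Rises made up 22.2% and falls 7.41% of the 27, beside 7.71% and 2.43% of all genes. SESN1, a sestrin that restrains growth signals, rose (+0.50, adjusted p = 0.00489), while SGK1, a kinase that glucocorticoids induce, fell without overlap (48.9 to 67.1 CPM at 1 day and 38.5 to 47.2 CPM at 3 days; -0.39, adjusted p = 0.00786), and KLF15, a transcription factor of fasting, fell by less (-0.33, adjusted p = 0.0253; adjusted p = 0.0581, 0.0559 and 0.0545 without C17L, C33R or C34L). TSC22D3 (+0.32, adjusted p = 0.0320), GADD45A (+0.47, adjusted p = 0.0489) and GADD45B (+0.47, adjusted p = 0.0435) passed by little and lost their calls without any 1 of 8 or more libraries, as without C33R (adjusted p = 0.0640, 0.116 and 0.101).

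Of 33 genes of glycolysis and pyruvate 6 rose (18.2%) and 0 fell, beside 7.71% rises among all genes. Without C42L 11 of the list rose, and 1719 of all genes. GPI, the second enzyme of the pathway, rose without overlap (243 to 303 CPM at 1 day and 304 to 368 CPM at 3 days; +0.28, adjusted p = 0.00262). ENO2, neuronal enolase (+0.36, adjusted p = 0.00845), and LDHA, which makes lactate (749 ± 61.2 to 929 ± 104 CPM; +0.31, adjusted p = 0.00696), rose too. HK1, the first enzyme (+0.22, adjusted p = 0.0290), and PFKFB3, a regulator of the flux (+0.26, adjusted p = 0.0371), were lost without C18R (adjusted p = 0.0741 and 0.0837) and without 5 and 8 other libraries. Of 20 hypoxia genes 4 rose (20%) and 0 fell, beside 7.71% rises among all genes, and 2 rose without any 1 of C17L, C18R, C19L, C23R, C33R and C34L. The 4 were NDRG1, LDHA, PFKFB3 and the mitophagy receptor BNIP3 (+0.35, adjusted p = 0.0472; without C33R adjusted p = 0.111, and lost without 9 other libraries). HIF1A, the gene of a hypoxia-inducible factor subunit, stood at 496 ± 15.5 and 481 ± 21.2 CPM (-0.04, adjusted p = 0.494).

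Synthesis of cholesterol and fatty acids had 8 rises and 0 falls in 30 genes, with a median of +0.24 beside +0.07 for all genes. Rises made up 26.7% of the list and 7.71% of all genes. FDFT1, which makes squalene, rose from 19.6 ± 2.99 to 29.3 ± 7.04 CPM (log2 fold change +0.55, SE 0.12, adjusted p = 0.00593). IDI1 (+0.40, adjusted p = 0.00858) and CYP51A1 (+0.47, adjusted p = 0.0123), in its middle, and SREBF2, the regulator of sterol genes (+0.49, adjusted p = 0.0142), rose as well. HMGCS1 (+0.37), HSD17B7 (+0.48) and INSIG1 (+0.36) passed with adjusted p = 0.0422, 0.0411 and 0.0442, and each lost its call without any 1 of 9 or more libraries, as without C43R (adjusted p = 0.0978, 0.0816 and 0.0865). FASN, fatty acid synthase, stood at 124 ± 13.1 and 132 ± 9.73 CPM (+0.09, adjusted p = 0.350). The count of rises was 5 with median-of-ratios scaling and 13 without C42L, and 5 without any 1 of C17L, C18R, C19L, C23R, C33R, C34L and C43R. With W-linked transcripts alone it was 3, and without them 0. Among all genes 569 rose with that scaling and 1719 without C42L. The fold change of FDFT1 was +0.66 with W-linked transcripts and +0.37 without them.

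The genes that separated the groups with the smallest adjusted p-values, chosen after their values were seen, included ACAP3 and PTN beside NDRG1 and ABCA4. ACAP3 (chromosome 21, 2384236 to 2451687), an activator of ARF GTPases, ran from 92.2 to 113 CPM at 1 day (median 104) and from 141 to 197 CPM at 3 days (median 181). It had the smallest adjusted p of the comparison (log2 fold change +0.79, SE 0.06, adjusted p = 5.80e-08; +0.82 and +0.73 within the kinds of library). PTN (chromosome 1, 57668138 to 57738115), the secreted growth factor pleiotrophin, ran from 454 to 514 CPM at 1 day (median 484) and from 642 to 709 CPM at 3 days (median 679.5), with little spread in either group (log2 fold change +0.49, SE 0.05, adjusted p = 5.34e-07; +0.42 and +0.53). BBS9, a subunit of the BBSome of cilia (+0.49, adjusted p = 2.65e-06), TMEM38A, a potassium channel of the endoplasmic reticulum (+0.60, adjusted p = 5.30e-06), and PTPRO, a receptor tyrosine phosphatase (+0.59, adjusted p = 7.80e-06), rose without overlap. CCSAP, a protein of centrioles and cilia, fell without overlap (65.6 to 88.1 CPM at 1 day and 42.8 to 59.98 CPM at 3 days; -0.65, adjusted p = 1.20e-05). At 6 days ACAP3, PTN and CCSAP stood at 123 ± 6.47, 523 ± 35.5 and 77.4 ± 5.005 CPM.

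The 15 largest rises among genes with a symbol and at least 5 CPM in the higher group held 3 clock genes, both opsins, NDRG1 and PDK4, and 8 further genes. SOUL (chromosome 5, 58929202 to 58939829), a heme-binding protein, ran from 37.95 to 61.7 CPM at 1 day (median 50) and from 69.9 to 124 CPM at 3 days (median 111), without overlap (log2 fold change +0.99, SE 0.13, adjusted p = 2.55e-05). CD82, a tetraspanin (4.25 to 9.06 CPM at 1 day and 11.1 to 16.1 CPM at 3 days; +0.91, adjusted p = 0.000124), UBAP1L, related to a ubiquitin-binding protein (3.96 to 5.16 CPM at 1 day and 5.80 to 15.1 CPM at 3 days; +0.97, adjusted p = 0.000165), and C5NT1AL, named as a nucleotidase relative (+0.82, adjusted p = 0.000145), also rose without overlap. NEK10, a kinase of the NIMA family (+1.02, adjusted p = 0.000230), FZD6, a Wnt receptor (+0.87, adjusted p = 0.000698), and CCDC169 (+0.85, adjusted p = 0.00200) rose with overlapping groups. F3, tissue factor, rose as a mean (log2 fold change +0.87, SE 0.26, adjusted p = 0.0345), but C10R, at 15.6 CPM, was far above the other 1-day libraries, which reached 7.64 CPM. The call of F3 was lost without any 1 of 8 libraries, as without C43R (adjusted p = 0.0824).

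The 15 largest falls held 5 chaperone genes, RBP4 and RDH8, and 8 further genes. RSRP1 (chromosome 23, 2551021 to 2555965), an arginine and serine rich nuclear protein, ran from 55.2 to 171 CPM at 1 day (median 156) and from 43.03 to 99.2 CPM at 3 days (median 57.6). Its fall was the largest among the genes ranked (log2 fold change -1.14, SE 0.20, adjusted p = 0.000688; -1.12 and -1.25 within the kinds of library). Only C10R, at 55.2 CPM, brought the 1-day group into the 3-day range, whose highest library was C41R, at 99.2 CPM. LONRF1, a ubiquitin ligase of the RING type, ran from 22.7 to 28.1 CPM at 1 day (median 25.9) and from 10.9 to 19.3 CPM at 3 days (median 12.7). EHD4, which remodels endosome membranes, ran from 11.8 to 19.9 CPM at 1 day (median 17.02) and from 6.94 to 10.6 CPM at 3 days (median 9.29). ERICH1, a protein rich in glutamate, ran from 212 to 286 CPM at 1 day (median 261) and from 132 to 191 CPM at 3 days (median 151). None of these 3 genes overlapped between the groups (LONRF1, log2 fold change -0.90, SE 0.11, adjusted p = 2.38e-05; EHD4, log2 fold change -0.86, SE 0.10, adjusted p = 1.61e-05; ERICH1, log2 fold change -0.72, SE 0.09, adjusted p = 2.55e-05). DOCK5, an activator of RAC (-0.70, adjusted p = 0.000865), RAD54L2, a chromatin remodeller (-0.73, adjusted p = 0.000129), and ATF3, a stress-induced transcription factor (4.84 to 6.70 CPM at 1 day and 2.28 to 4.74 CPM at 3 days; -0.68, adjusted p = 0.00110), fell without overlap as well. FBXO5, which restrains the anaphase-promoting complex, passed (log2 fold change -0.73, SE 0.23, adjusted p = 0.0448) but lost its call without any 1 of 10 libraries, as without C18R (adjusted p = 0.104). At 6 days RSRP1, LONRF1, EHD4 and ERICH1 stood at 173 ± 11.9, 27.4 ± 3.94, 16.4 ± 1.45 and 288 ± 37.8 CPM, beside 135 ± 42.3, 25.7 ± 1.90, 16.6 ± 2.65 and 254 ± 28.4 CPM at 1 day.

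Genes without a symbol and genes of low level were left out of that ranking, and beside NR2E3, described above, those that at least doubled or halved are named here for that size, with their values known. The noncoding genes LOC101749116 (chromosome 2, 105154780 to 105180412; 0.868 to 1.86 CPM at 1 day and 2.19 to 12.1 CPM at 3 days) and LOC107052018 (0.257 to 2.36 CPM at 1 day and 3.04 to 5.44 CPM at 3 days) rose without overlap, by +1.74 and +1.56 (adjusted p = 0.000314 and 6.33e-05). LOC107054540 and LOC107052908 rose by +1.37 and +1.10 (adjusted p = 0.000347 and 0.00159), and LOC101751437 fell (-1.01, adjusted p = 0.00724). KLHL34, a kelch protein (0.449 ± 0.311 to 1.997 ± 1.10 CPM; +1.32, adjusted p = 0.00663), and MYCL, of the MYC family (0.612 ± 0.219 to 1.77 ± 0.5681 CPM; +1.01, adjusted p = 0.000826), rose from levels near the pseudocount of 0.5 CPM, where log2 fold changes understate the change.

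Of 33 genes of splicing regulators 4 fell (12.1%) and 1 rose (3.03%), beside 2.43% and 7.71% of all genes. Beside RSRP1, TRA2A, a splicing activator (-0.32, adjusted p = 0.00191), RBM39 (-0.22, adjusted p = 0.0175) and RBM5 (-0.33, adjusted p = 0.0210) fell, and CLK3, a kinase of SR proteins, rose without overlap (5.11 to 6.74 CPM at 1 day and 7.22 to 9.99 CPM at 3 days; +0.57, adjusted p = 5.87e-05). RBM5 was lost without C43R (adjusted p = 0.0521). The list had 8 falls with median-of-ratios scaling and 7 without C41R, beside 695 and 335 falls among all genes. SRSF1, the abundant SR protein, stood at 118 ± 11.03 and 117 ± 20.3 CPM (-0.03, adjusted p = 0.865). Of 21 immediate early genes 3 fell and 0 rose, ATF3, DUSP6 (-0.32, adjusted p = 0.0324) and NR4A3 (-0.33, adjusted p = 0.0435). Falls made up 14.3% of these genes and 2.43% of all genes. EGR1, which neuronal activity induces, varied widely, 7.61 to 18.8 CPM at 1 day and 3.12 to 14.9 CPM at 3 days (-0.36, adjusted p = 0.453). The list had 1 fall without any 1 of C21R, C22L, C33R, C34L, C41R and C43R. The calls of DUSP6 and NR4A3 were lost without any 1 of 6 and 9 libraries, as without C33R (adjusted p = 0.0713 and 0.0565).

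Among genes of signals tied to eye growth 3.1% rose and 0% fell, beside 7.71% and 2.43% of all genes. Of 32 such genes 1 rose, the adenosine receptor gene ADORA1 from a low level (0.433 to 0.759 CPM at 1 day and 0.722 to 1.57 CPM at 3 days; +0.58, adjusted p = 0.00290), with 3 rises without C31L, 2 rises without C10R, C22L or C34L and 2 falls without C42L. That list had 2 falls with median-of-ratios scaling and 3 with quantile normalization, beside 695 and 608 falls among all genes. The growth factor gene BMP2 stood at 0.952 ± 0.289 and 0.900 ± 0.253 CPM (-0.05, adjusted p = 0.866), and the neurotrophin gene BDNF at 4.96 ± 0.838 and 3.88 ± 0.336 CPM (-0.31, adjusted p = 0.110). Of 13 thyroid hormone genes 1 rose, the transporter SLCO1C1, without overlap (3.07 to 4.43 CPM at 1 day and 4.73 to 8.35 CPM at 3 days; +0.56, adjusted p = 0.00254), and without C42L 2 rose and 1 fell. DHRS3 was the single call among 13 retinoic acid genes. Rises made up 7.69% of the thyroid hormone genes and 7.69% of the retinoic acid genes, beside 7.71% of all genes.

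Calls in neuronal and housekeeping lists are set beside 7.71% rises and 2.43% falls among all genes. Rises and falls made up 3.33% and 6.67% of synaptic release genes and 5.71% and 2.86% of channel genes. In ubiquitin and autophagy 12.5% rose. Of 30 genes of synaptic release 1 rose, the active zone gene RIMS1 (+0.14, adjusted p = 0.0396), and 2 fell, the ribbon synapse complexin gene CPLX4 (-0.27, adjusted p = 0.0111) and the synaptotagmin gene SYT4 (-0.20, adjusted p = 0.0339). Both falls lie on the Z chromosome, with fold changes within the kinds of library of -0.12 and -0.42 for CPLX4 and -0.26 and -0.10 for SYT4. RIMS1 and SYT4 were lost without C18R (adjusted p = 0.0516 and 0.0620) and without 8 and 5 other libraries, and without C42L 3 of the list rose. Median-of-ratios scaling gave that list 0 rises and 5 falls. Of 35 channel genes CACNA2D4 and the potassium channel gene KCNH5 rose (76.7 to 87.9 CPM at 1 day and 88.1 to 126 CPM at 3 days; +0.34, adjusted p = 0.00169) and KCNH1 fell (-0.30, adjusted p = 0.00527), with 4 rises without C42L and 3 falls with median-of-ratios scaling. In ubiquitin and autophagy 3 of 24 rose: SQSTM1, the autophagy receptor p62 (+0.47, adjusted p = 0.000265), WIPI1 (+0.43, adjusted p = 0.00500) and the lysosomal LAMP1 (+0.23, adjusted p = 0.0273; without C18R adjusted p = 0.0726, and lost without 4 other libraries). Without C42L 6 of them rose, beside 1719 of all genes.

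Cytosolic ribosomal protein genes had 3 rises in 72, RPS25 (+0.20), RPS3A (+0.21) and RPL5 (+0.19), a count that was 0 without any 1 of C18R, C23R, C34L, C41R and C43R, 1 without C33R, 6 without C19L, C21R or C31L, 7 without C44R and 19 without C42L. Among all genes 972 rose with all libraries and 1719 without C42L. Mitochondrial ribosomal proteins had 0 calls in 72 with limma and 8 genes at an unadjusted p under 0.05, with 1 rise without C42L, 1 fall without C10R or C41R and 3 falls with median-of-ratios scaling; MRPS31, the most abundant, stood at 23.3 ± 2.07 and 23.97 ± 2.49 CPM. Of 71 nuclear genes of oxidative phosphorylation 1 rose, NDUFA12 (+0.28, adjusted p = 0.0350), and 1 fell, NDUFB1 (-0.23, adjusted p = 0.0459); both calls were lost without C18R or C33R among others (adjusted p without C33R 0.0930 and 0.105). Proteasome genes had 2 rises in 30, PSMD9 (+0.28, adjusted p = 0.0167) and PSMC2 (+0.27, adjusted p = 0.0216; without C33R adjusted p = 0.0586, also lost without C18R or C34L), and 5 without C42L. Of 33 histone genes the linker variant H1FX rose (+0.42, adjusted p = 0.0169); histone genes are near copies of each other, so counts of single ones are uncertain. Proliferation had 3 rises in 14, the transcription factor FOXM1 without overlap (+0.55, adjusted p = 0.00102) and the replication helicase subunits MCM4 (+0.37, adjusted p = 0.0150) and MCM5 (+0.40, adjusted p = 0.0290; adjusted p = 0.0761 without C33R, also lost without C18R, C19L or C43R). Interferon genes had 3 in 11, PARP12 (+0.39, adjusted p = 0.00654), HELZ2 (+0.49, adjusted p = 0.0200; adjusted p = 0.0538 without C18R) and ZNFX1 (+0.55, adjusted p = 0.0418). Rises made up 21.4% of the proliferation and 27.3% of the interferon genes, beside 7.71% of all genes. They made up less than that among cytosolic ribosomal protein (4.17%), oxidative phosphorylation (1.41%), proteasome (6.67%) and histone genes (3.03%). Falls made up 1.41% of the oxidative phosphorylation genes, beside 2.43% of all genes. ZNFX1 was highest in C42L, at 3.89 CPM, without which it did not pass (adjusted p = 0.0572), nor without any 1 of 7 other libraries.

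**Figure D5:**
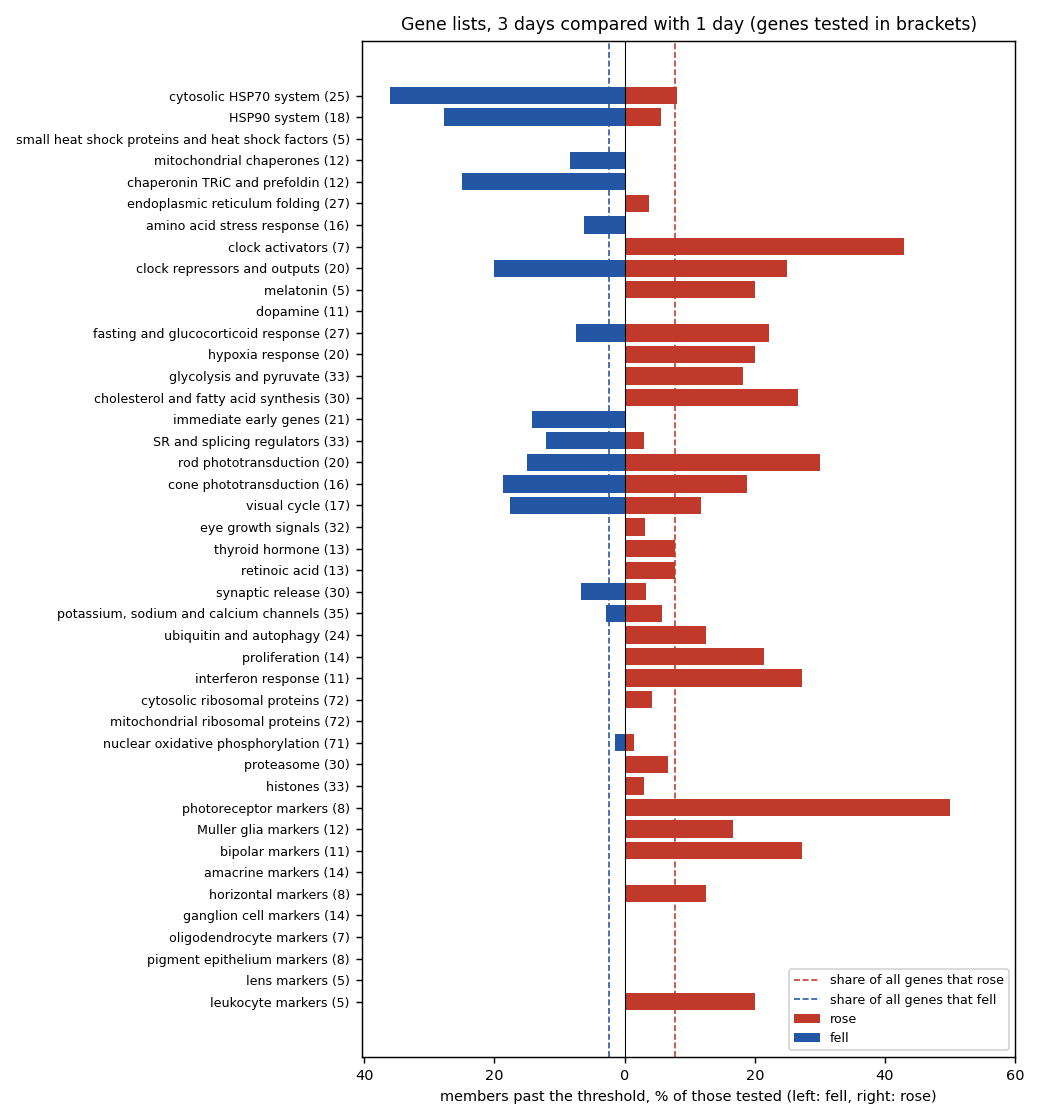
Share of the tested members of each gene list that rose (red, right) or fell (blue, left) at 3 days relative to 1 day, in % of the members tested (x axis), with the number tested in brackets; lists with fewer than 5 genes tested are not drawn. The dashed lines mark the shares among all genes, 7.71% for rises and 2.43% for falls, and falls are most frequent in the HSP70, HSP90 and TRiC lists.

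Calls among markers of retinal cell classes were rises in photoreceptor, bipolar, Muller glia and horizontal cell lists, beside 7.71% rises among all genes. Among 8 photoreceptor markers OPN1LW, GNGT2, PRPH2 and GNAT1 rose, and the summed level of the 8 was 1536 to 1943 CPM at 1 day and 1737 to 2140.1 CPM at 3 days. ARR3 lay below 0 (-0.24), and 1 marker of that list fell with median-of-ratios scaling. Of 11 bipolar markers 3 rose, the transcription factor genes VSX1 (+0.46, adjusted p = 0.000598), OTX2 (+0.36, adjusted p = 0.00464) and LHX4 (+0.58, adjusted p = 0.00792), while the summed level of the list was 620.0 to 666 and 616 to 724 CPM. In that list 5 of the 11 lay below 0, with a median of +0.01, and 1 fell with median-of-ratios scaling. Of 12 Muller glia markers FABP7, a fatty acid carrier (+0.59, adjusted p = 0.0178), and GFAP, an intermediate filament that glia make under stress (+0.81, adjusted p = 0.0263), rose. At 1 day 1 library, C10R, held 6.60 CPM of GFAP and the others 1.54 to 2.30 CPM, and the call was lost without C33R (adjusted p = 0.0574) and without 5 other libraries. ESRRB, a nuclear receptor, was the single call among 8 horizontal cell markers (1.43 to 2.91 CPM at 1 day and 3.25 to 5.89 CPM at 3 days; +0.87, adjusted p = 0.00102). Of those 8 markers 5 lay below 0, with a median of -0.04. Amacrine and ganglion cell markers had 0 calls with limma in 14 genes each and 2 each at an unadjusted p under 0.05, with 1 amacrine rise without C31L and 1 ganglion cell rise without C42L. NEFL, a neurofilament gene of ganglion cells, stood at 95.99 ± 8.61 and 91.4 ± 19.8 CPM.

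Summed markers of neighbouring tissues overlapped between the groups. Oligodendrocyte markers, which enter with the nerve fibre layer of the chick, had 0 calls with limma in 7 (2 at an unadjusted p under 0.05; 1 fall without C19L, C22L, C31L or C34L), with MBP at 147 ± 35.5 and 119 ± 14.4 CPM and a summed level of 117 to 237 and 126 to 172 CPM. Pigment epithelium markers had 0 calls with limma in 8, 2 at an unadjusted p under 0.05 and 1 rise without C42L (summed 35.8 to 42.9 and 35.1 to 47.96 CPM). The markers TYR, PMEL, BEST1, TTR and MLANA of that list were below the filter. Its other markers passed the filter, among them MITF, with means of 18.2 and 16.2 CPM, and OCA2, with 12.3 and 12.1 CPM. Lens markers had 0 calls with limma in 5 and 1 at an unadjusted p under 0.05 (summed 19.6 to 25.5 and 17.2 to 26.6 CPM), with 9 others below the filter. Fibroblast and sclera, endothelial and muscle markers had 0 calls with limma in 4, 2 and 1 genes tested, with 1, 0 and 0 at an unadjusted p under 0.05 and 1 fibroblast fall without C18R. The most abundant gene of each was COL5A1 at 9.55 ± 1.75 and 9.81 ± 1.90 CPM, KDR at 36.04 ± 5.85 and 31.5 ± 4.20 CPM and ACTA2 at 0.882 ± 0.425 and 0.867 ± 0.282 CPM. Most other genes of these lists were below the filter. Among them were COL1A1, with means of 0.0132 and 0.0188 CPM, and CDH5, with 0.0326 and 0.135 CPM. PECAM1 passed the filter, with means of 18.8 and 16.1 CPM. Of 5 leukocyte markers CD74, of antigen presentation, rose (+0.66, adjusted p = 0.0115), and their summed level was 4.77 to 8.73 and 6.29 to 10.3 CPM. Of the erythroid markers SLC4A1 and TAL1 were in the table, both below the filter, and the others were not analysed here. The part of cell composition in the differences above was not tested.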

How the data were processed

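Retinal RNA was collected with RNAlater and miRNeasy kits and sequenced after Ribo-Zero Gold depletion with stranded TruSeq total RNA libraries, per the labels' protocols. STAR, Partek and build GRCg6a are named in the submitters' processing notes, without versions here. The authors deposited 1 table of CPM values with an offset of 0.0001 added, for 18631 genes in 21 libraries; library totals were estimated from the value of 1 read. Of the low values above 0 in each library, 94.3% to 95.5% were whole multiples of that step (tolerance 0.1). The deposited values were normalized and not whole reads, and no count test was run. The annotation version and the use of strand in counting are not given in the sources used here.

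The offset was subtracted, genes with at least 0.5 CPM in 7 or more libraries were kept, and log2(CPM + 0.5) was fitted with limma 3.58.1 (R 4.3.3) with 3 group means, a mean-variance trend and Benjamini-Hochberg adjustment over 12614 genes, two-sided, at 0.05. The fit was tested on simulated data. All adjusted p-values are from limma, fold changes are on the log2(CPM + 0.5) scale, and values after ± are SDs of 7 libraries. Named genes were the 15 largest rises and 15 largest falls with a symbol and at least 5 CPM in the higher group, and up to 4 genes of each list with the smallest adjusted p, or its most abundant gene where none passed. A further 40 called or large changes, and members below the threshold named for their role, were added with their values seen. Gene lists and members were chosen with earlier results of these data known. Of the named genes 15 overlap another gene on the same strand and 39 one on the other strand. Some genes that passed are not reported here.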

Additional observations from a re-analysis of the deposited data

Results flagged for a closer look

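In 20 of 312 sets of 7 libraries (6.41%), 1 library lay apart from the rest by more than Dixon's critical value for its group size; chance gives about 1 in 20. Library C10R at 1 day accounted for 9 of them. It was the lowest library for HSPA8 at 375 CPM, HSP90AA1 at 374 CPM, HSPD1 at 22.4 CPM, AHSA1 at 11.98 CPM and RBM39 at 42 CPM. It was the highest for F3 at 15.6 CPM, UBAP1L at 5.16 CPM, BNIP3 at 15.3 CPM and GFAP at 6.60 CPM.

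Others at 1 day were GRK7, lowest in C19L at 175 CPM, KLF15, highest in C17L at 9.22 CPM, and INSIG1, highest in C22L at 34.99 CPM. At 3 days the high libraries were C44R for RAD54L2, at 7.80 CPM, and AHSA1, at 15.4 CPM, C41R for RSRP1, at 99.2 CPM, C43R for SLCO1C1, at 8.35 CPM, C42L for ZNFX1, at 3.89 CPM, and C34L for INSIG1, at 57.5 CPM. The low ones were C31L for GFAP, at 2.42 CPM, and C42L for PTPRO, at 60.2 CPM.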

How the results depend on the processing

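The counts of calls turned with the scaling and with the libraries. Median-of-ratios scaling gave 569 rises and 695 falls, quantile normalization 573 and 608, and median-of-ratios scaling with W-linked transcripts as a covariate 555 and 750, beside 972 and 307. Libraries with W-linked transcripts alone gave 270 calls (174 rises, 96 falls), and those without them alone 73 (48 rises, 25 falls), with 3 or 4 libraries a group. Leaving out 1 library at a time gave 847 to 2153 calls, 629 to 1719 rises and 209 to 434 falls. The cause was not tested. Of 145 called genes named here, 27 kept direction and call under every one of the 29 alternatives in which they were tested. NR2E3, among these, was tested in 28. Whichever library was left out, 110 genes kept them, and 124 did with median-of-ratios scaling. No direction of a called gene reversed. Other pseudocounts, filters, weights and covariates kept the number of all calls within 1.5 times. A fit of the 14 libraries at 1 and 3 days alone gave 960 calls (720 rises, 240 falls). In that fit 118 of the 145 named genes kept direction and call. No paired analysis was possible because the groups share none of the numbers in the titles. Depth limits genes near 0.5 CPM, where 1 read was worth 0.0241 to 0.0361 CPM.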

Other observations

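Some genes had large mean differences that did not pass. STS, steroid sulfatase, ran from 37.6 to 89.1 CPM at 1 day (median 81.2) and from 2.22 to 73.5 CPM at 3 days (median 39.8), a log2 fold change of -1.60 (limma, adjusted p = 0.0829). NEBL1 ran from 16.1 to 207 CPM at 1 day (median 45.8) and from 44.8 to 213 CPM at 3 days (median 151) (+1.21, limma, adjusted p = 0.125). In both genes the ranges of the groups overlap. ANGPTL7 ran from 1.29 to 13.9 CPM at 1 day (median 3.78) and from 1.08 to 3.71 CPM at 3 days (median 2.28) (-0.81, limma, adjusted p = 0.118).

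The share of falls rose with the level of the gene, from 0.134% of genes under 1 CPM to 9.23% of those at 100 CPM or more (56 of 607), where 61 rose. On the Z chromosome 13 genes rose and 11 fell of 611 tested. These were 2.13% and 1.80%, beside 7.71% and 2.43% of all genes. The median Z gene lay at -0.05, beside +0.07 for all genes. The main fit had no term for W-linked transcripts, and both groups mixed libraries with and without them. Whether that mix bears on the Z counts and median was not tested. Of 35 genes tested on the W chromosome 0 passed with limma and 0 had an unadjusted p under 0.05. Their median log2 fold change was +0.68, with W-linked transcripts in 3 libraries at 1 day and 4 at 3 days and nearly none in the others.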
